A study of Homo sapiens with 16 samples.

Results

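The 9 genes described here belong to the phosphorylation of translation initiation factor eIF2 and to the sestrins that act beside it. They are the kinases EIF2AK1, EIF2AK3 and EIF2AK4, the kinase substrate EIF2S1, the phosphatase subunits PPP1R15A and PPP1R15B, and SESN1, SESN2 and SESN3. They are picked out by name and not by a threshold on measured values, though the choice was made with earlier results of these data known, and all 9 were found among the 59609 genes of both RNA-seq tables. Human liver cancer cells labelled Huh7, a hepatoma line, were profiled by mRNA sequencing in 4 groups of 3 libraries. One comparison set cells given sorafenib, a multikinase inhibitor used against liver cancer, against cells given its solvent DMSO. The other set cells overexpressing MT1G, a metal-binding protein of the metallothionein family, against cells with an empty vector. Open chromatin was profiled by ATAC-seq in 2 libraries each of sorafenib and DMSO cells. All groups shared the one cell line label, and the labels give no dose, treatment time, promoter or clone for the overexpression.

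Phosphorylation of the alpha subunit of eIF2 slows most protein synthesis while the transcription factor ATF4 is still made, a programme known as the integrated stress response. EIF2AK1 (HRI) responds to heme shortage and mitochondrial stress, EIF2AK3 (PERK) to unfolded protein in the endoplasmic reticulum and EIF2AK4 (GCN2) to uncharged tRNA. Protein phosphatase 1 reverses the mark when guided to eIF2 by PPP1R15A (GADD34), which is itself induced under stress, or by PPP1R15B (CReP), which is made in unstressed cells. Sestrins are stress-induced proteins that restrain the growth kinase complex mTORC1 through the GATOR complexes, and SESN2 binds leucine. RNA levels measure neither kinase activity nor the phosphorylation of eIF2.

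Values are normalized read counts, that is, reads per gene divided by a size factor for each library. Each table was normalized by itself, and libraries held 16549330 to 26781600 reads in genes. Replicate libraries of a group all differed by more than counting noise (chi-square per degree of freedom 2.99 to 17.9 over 12 pairs). Nothing in the labels says that replicates came from separate cultures, so p-values measure the spread between these libraries, which may be technical. MT1G itself had 0 reads in all DMSO and vector libraries, 130.2 to 179 normalized reads in the overexpressing libraries and 158 to 194 in the sorafenib libraries. Of 12 hepatocyte and hepatoma markers, only HNF4A reached a mean of 10, at 117 in sorafenib, 340.5 in DMSO, 215 in MT1G and 323 in vector libraries. ALB, APOB and GPC3 had no read in any of the 12 RNA libraries, so the expression did not show the labelled hepatoma identity. Of 7 fibroblast and stellate cell markers, 5 reached a mean of 10, with a summed level of 1039 to 1079 in sorafenib libraries, 2338 to 2591 in DMSO, 2644 to 3475 in MT1G and 2159 to 2206 in vector libraries. LUM had the highest mean of these markers in every group, and the 5 did not all move in the same direction. Summed endothelial markers (36.3 to 79.7) and leukocyte markers (24.9 to 51.3) were low in every library. The part of these marker levels in the results below was not tested. In bulk RNA, fewer cells of a type and less RNA per cell cannot be told apart.

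With sorafenib, 5 of the 8 genes with a mean of at least 10 normalized reads in both groups were higher and 2 were lower, with a median log2 change of 0.56. PPP1R15A rose 14.4-fold, SESN2 6.83-fold, SESN1 1.93-fold, PPP1R15B 1.61-fold and EIF2AK3 1.35-fold, while EIF2AK1 fell to 0.80 and EIF2AK4 to 0.78 of the DMSO level. Genes were called at an adjusted p under 0.05 from limma (a linear model with a shared variance trend) on log2(normalized read count + 1), after leaving out genes whose mean was under 10, and adjusted over all genes tested. These shares have a high background, since 34.4% of the 14915 genes tested were called higher and 35.8% lower, together 70.3%. In all 8 of these genes the sorafenib and DMSO libraries did not overlap, as in 73.0% of the genes tested. The 14915 genes needed a mean of 10 over the 6 libraries, not in each group. No share was computed with that stricter filter. With so many genes called, the members are described by the size of their changes. Of all genes tested, 209 had a higher log2 change than PPP1R15A and 442 than SESN2. The ninth gene, SESN3, had a DMSO mean of 5.01 and a sorafenib mean of 55.2, so it passed the minimum mean only through the group where it is high, had to differ to be tested at all, and is left out of these counts. The median of all genes was -0.02 with the deposited size factors and 0.21 when libraries were scaled by their read totals, a scaling chosen after seeing the data. With the read totals, 6872 genes were higher and 3496 lower, in place of 5137 and 5347.

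**Figure D1:**
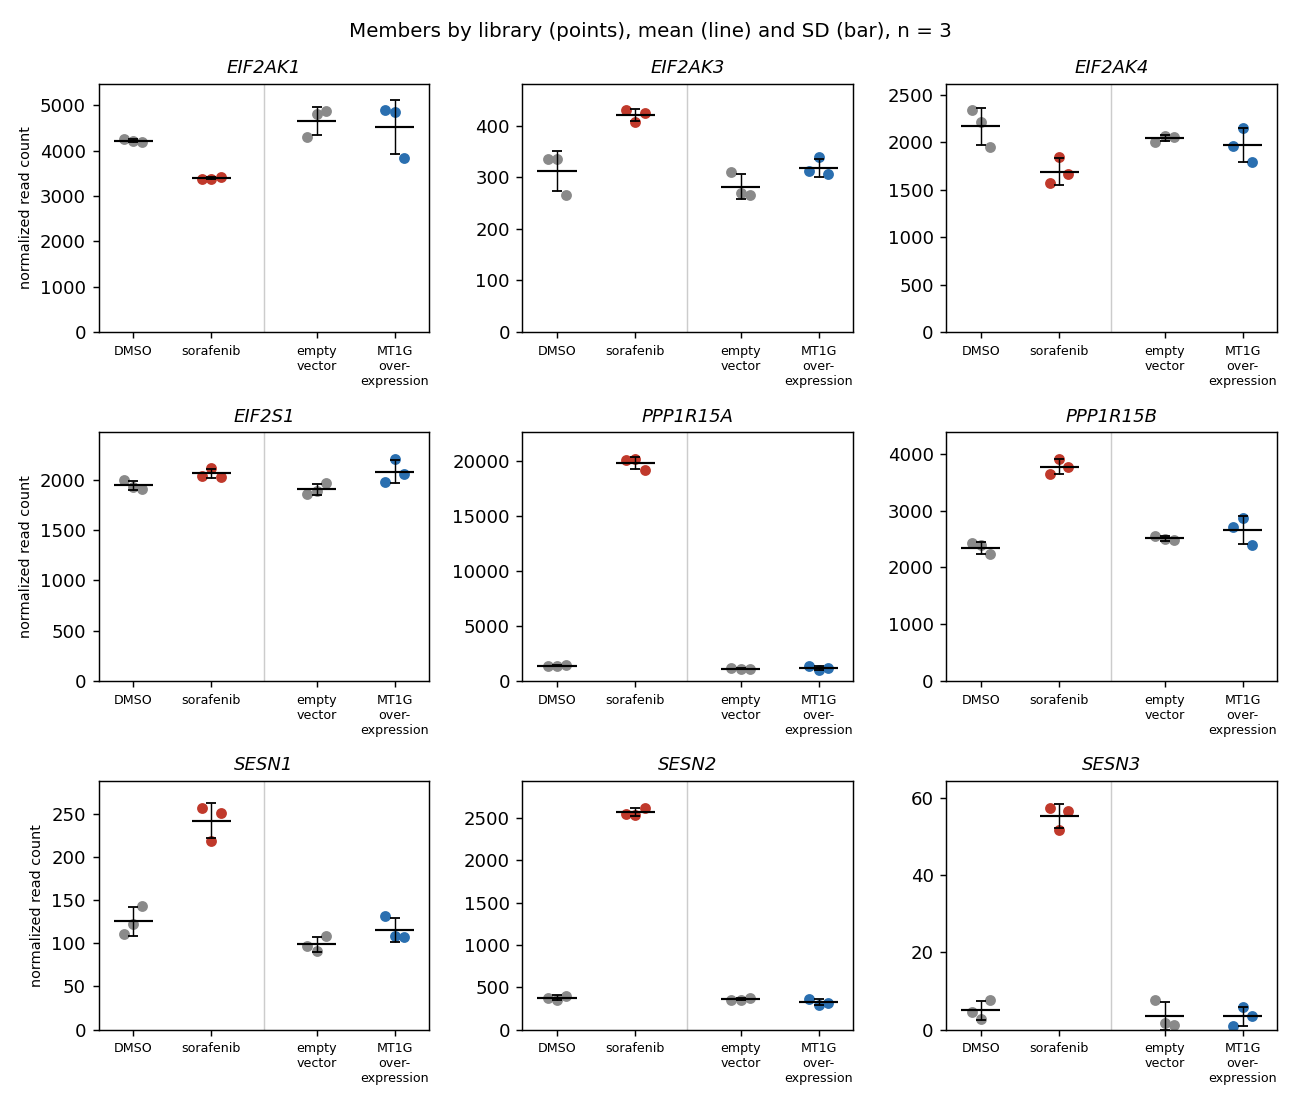
Normalized read count (y axis, linear, from 0) of each of the 9 genes in every RNA library, with a line at the group mean and a bar of 1 SD (n = 3), sorafenib and DMSO on the left of each panel and MT1G and vector, normalized separately, on the right. PPP1R15A in sorafenib libraries sits at 19257 to 20209, above the DMSO libraries at 1327 to 1456, whereas MT1G and vector libraries overlap for PPP1R15A.

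Among the kinases, the heme-regulated kinase EIF2AK1 had 3378, 3377 and 3417 normalized reads with sorafenib and 4265, 4221 and 4183 with DMSO. The sorafenib libraries were all below the DMSO libraries, by a log2 change of -0.32 (SE 0.05, adjusted p = 6.07e-05). EIF2AK3, the endoplasmic reticulum kinase, had 429.6, 407 and 424 normalized reads with sorafenib and 335, 335 and 266 with DMSO. It rose by 0.44 on the log2 scale (SE 0.10, adjusted p = 0.00101, limma), with the lowest sorafenib library above the highest DMSO library. EIF2AK4, the kinase that senses uncharged tRNA, had 1566, 1839 and 1663 normalized reads with sorafenib and 2335, 2213 and 1951 with DMSO. Its change was -0.36 (SE 0.08, adjusted p = 0.000537, limma), and again no library of one group reached into the other. Both falls depended on the scaling. With read totals in place of size factors, EIF2AK1 changed by -0.09 (adjusted p = 0.110) and EIF2AK4 by -0.13 (adjusted p = 0.170, limma), so neither was called, while the rise of EIF2AK3 was. These were the highest adjusted p-values of their 15 alternatives, the lowest being 6.48e-07 for EIF2AK1 and 2.58e-06 for EIF2AK4.

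EIF2S1 encodes the alpha subunit of eIF2 that all of these kinases phosphorylate. It had 2042, 2123 and 2033 normalized reads with sorafenib and 2001, 1928 and 1916 with DMSO. The groups did not overlap, but the log2 change of 0.08 (95% interval -0.04 to 0.21, adjusted p = 0.202, limma) did not pass the test. Scaled by read totals it was 0.31 (adjusted p = 0.000224, limma), which did pass.

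The phosphatase subunit PPP1R15A had the largest log2 change of the 9 genes with sorafenib. It had 20160.2, 20209 and 19257 normalized reads with sorafenib and 1327, 1371 and 1456 with DMSO, or 19875 ± 536 against 1385 ± 65.4 (SD, n = 3 each). Every sorafenib library was far above every DMSO library, a 14.4-fold rise (95% interval 13.2 to 15.6, adjusted p = 1.95e-17, limma). PPP1R15B, the subunit made without stress, had 3649, 3907 and 3761 normalized reads with sorafenib and 2422, 2396 and 2226 with DMSO. It rose 1.61-fold (95% interval 1.47 to 1.75, adjusted p = 3.37e-08, limma) with no overlap. The mean of PPP1R15B was thus 3772 ± 129.5 with sorafenib and 2348 ± 106 with DMSO (SD, n = 3 each).

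The stretches before the start sites of PPP1R15A and PPP1R15B are shown because both genes lay under a peak of open chromatin in every ATAC-seq library and both held letters that ATF and CREB family factors are known to bind. PPP1R15A lies on chromosome 19 at 48872421 to 48876058 (plus strand) and PPP1R15B on chromosome 1 at 204395826 to 204411817 (minus strand) of hg38. The 250 bases before each start, chr19:48872171-48872420 and chr1:204411818-204412067, were read from RefSeq (GRCh38.p14) and are printed 5′ to 3′ on the gene's strand. Capitals mark the letters TGACGTCA (the cyclic AMP response element), TGACG (its part on either strand) and TGATGNAA (the core of the element bound by C/EBP and ATF factors together).
PPP1R15A: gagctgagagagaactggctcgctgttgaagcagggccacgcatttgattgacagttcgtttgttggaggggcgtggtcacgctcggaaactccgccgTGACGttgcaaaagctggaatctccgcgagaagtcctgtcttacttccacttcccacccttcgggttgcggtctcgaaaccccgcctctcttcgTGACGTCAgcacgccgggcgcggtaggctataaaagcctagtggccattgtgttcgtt
PPP1R15B: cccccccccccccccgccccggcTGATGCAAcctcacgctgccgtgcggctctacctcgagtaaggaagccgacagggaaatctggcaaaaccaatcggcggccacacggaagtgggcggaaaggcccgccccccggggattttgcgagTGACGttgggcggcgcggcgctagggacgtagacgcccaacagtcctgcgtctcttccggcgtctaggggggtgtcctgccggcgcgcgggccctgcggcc
In PPP1R15A the full TGACGTCA stood at positions -58 to -51 from the start, with position -1 the last base before it, and a further TGACG at -152 to -148. In PPP1R15B TGATGCAA stood at -227 to -220 and TGACG at -101 to -97. Searched on both strands in 35116 windows from 250 bases before to 50 after a start (300 bases), TGACGTCA was found in 1.85%, TGATGNAA in 3.62% and TGACG, which TGACGTCA contains, in 24.6%. Of the 10 such windows of the member genes (8 genes, with none matched for EIF2AK1), 1 held TGACGTCA, 1 held TGATGNAA and 3 held TGACG. Beside PPP1R15A and PPP1R15B, TGACG was in a SESN1 window, at -155 to -151 and -59 to -55. That window, not printed here, also lay under a peak in every ATAC-seq library. The AP-1 letters TGANTCA were in 7.71% of all windows and in 1 member window (EIF2AK4), the 10-base p53 motif (1 copy) in 6.63% and in 2 (EIF2AK4 and SESN1), and the CArG box in 1.29% and in none. A match of letters is a description and does not mark a bound site.

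The sestrins were all higher with sorafenib, SESN3 with the limit given above. SESN2, the leucine-binding sestrin and a known target of ATF4, had 2549, 2541 and 2619.6 normalized reads with sorafenib and 378, 346 and 404 with DMSO. The groups were far apart, at 2570.0 ± 43.1 against 376 ± 28.9 (SD, n = 3 each), a 6.83-fold rise (95% interval 6.15 to 7.59, adjusted p = 1.44e-14, limma). SESN1, known as a p53 target, had 257, 218 and 251 normalized reads with sorafenib and 110.2, 122 and 143 with DMSO. Its lowest sorafenib library lay above its highest DMSO library, and it rose 1.93-fold (95% interval 1.61 to 2.32, adjusted p = 4.58e-06, limma). SESN3, known as a target of FOXO factors, was near the floor with DMSO, at 4.50, 2.89 and 7.64 normalized reads, and had 57.4, 51.6 and 56.6 with sorafenib. The fitted change was 9.86-fold on the log2(normalized read count + 1) scale (95% interval 5.97 to 16.3, adjusted p = 2.82e-07, limma). The log2 change of SESN3 was 3.30 here and 3.48 in the authors' deposited table. For the other members, the log2 changes in the authors' deposited table lay within 0.0119 of the values given here.

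Upstream sequences of SESN2 and SESN3 are shown because the chromatin around their starts differed from each other. SESN2 (chromosome 1, 28259518 to 28282491, plus strand) had a peak over its start in all 4 ATAC-seq libraries, and SESN3 (chromosome 11, 95165513 to 95232475, minus strand) had none over its listed start in any. The stretches are chr1:28259268-28259517 and chr11:95232476-95232725 of GRCh38.p14 from RefSeq, 5′ to 3′ on the gene's strand. Neither holds TGACG, TGACGTCA or TGATGNAA, so neither has capitals, which says only that these letters are not in these windows.
SESN2: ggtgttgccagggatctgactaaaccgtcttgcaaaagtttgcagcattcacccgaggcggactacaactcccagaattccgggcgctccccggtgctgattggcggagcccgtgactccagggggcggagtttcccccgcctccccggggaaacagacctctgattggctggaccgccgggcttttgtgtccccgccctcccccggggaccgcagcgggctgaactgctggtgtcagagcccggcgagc
SESN3: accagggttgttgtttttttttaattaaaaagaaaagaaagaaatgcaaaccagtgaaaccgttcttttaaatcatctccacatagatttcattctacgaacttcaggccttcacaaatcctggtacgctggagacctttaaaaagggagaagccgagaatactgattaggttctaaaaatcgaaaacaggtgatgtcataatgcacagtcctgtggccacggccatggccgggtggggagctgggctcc

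With MT1G overexpression, none of the 8 members tested was called by limma, edgeR or DESeq2. In limma 0 of 8 had an unadjusted p under 0.05, a looser threshold whose share over all genes was not computed. By adjusted p, limma called 22.8% of 13914 genes in either direction as background (11.5% higher and 11.3% lower). That background moved with single libraries, since 1007 genes were higher and 764 lower without vector replicate 3, and 1062 and 824 without vector replicate 2, in place of 1604 and 1575. The log2 changes ran from -0.16 to 0.22, with a median of 0.07. PPP1R15A had 1342, 994 and 1211 normalized reads with MT1G and 1179, 1098 and 1098 with the vector. The MT1G libraries lay on both sides of the vector libraries, and the log2 change of 0.06 (95% interval -0.15 to 0.27, adjusted p = 0.694, limma) did not pass the test. SESN2 had 364, 292 and 319 normalized reads with MT1G and 356, 350.01 and 379 with the vector, a log2 change of -0.16 (95% interval -0.40 to 0.08, adjusted p = 0.325, limma). SESN1 had 131, 108 and 107 normalized reads against 96.5, 91.3 and 109 (0.22, interval -0.12 to 0.56). On this scale the groups overlapped for both sestrins. PPP1R15B had 2709, 2874 and 2394 normalized reads with MT1G and 2559, 2501 and 2478 with the vector (0.08, interval -0.09 to 0.25).

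For the kinases, EIF2AK1 had 4891, 4847 and 3842 normalized reads with MT1G and 4295, 4804 and 4872 with the vector (log2 change -0.05, interval -0.24 to 0.15). The third MT1G library was the lowest of the 6, and without it the log2 change was 0.07. EIF2AK3 had 311, 338 and 305 normalized reads with MT1G and 309, 269 and 266 with the vector (0.18, interval -0.06 to 0.42). EIF2AK4 had 1955, 2148 and 1789.9 with MT1G and 2003, 2059 and 2056 with the vector (-0.06, interval -0.23 to 0.11). On this scale the groups overlapped for all 3 kinases. EIF2S1 was the 1 member tested whose groups did not overlap on it, as in 39.4% of all genes tested, with 1982, 2209.5 and 2062 normalized reads with MT1G and 1862, 1889.7 and 1968 with the vector. Its log2 change of 0.13 (95% interval -0.04 to 0.29, adjusted p = 0.256, limma) did not pass the test. SESN3 was under the minimum mean and was not tested, with 0.994, 5.81 and 3.66 normalized reads with MT1G and 7.68, 1.79 and 1.17 with the vector.

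Since both comparisons have their own controls, the difference of both log2 changes was tested in 1 limma model over the 12 RNA libraries and 13748 genes. Of the 8 members tested, 6 differed, against 54.3% of all genes. The sorafenib change exceeded the MT1G change by 3.78 for PPP1R15A (95% interval 3.54 to 4.03, adjusted p = 2.70e-16) and by 2.93 for SESN2 (2.67 to 3.19, adjusted p = 5.84e-14). For PPP1R15B the difference was 0.61 (95% interval 0.40 to 0.81, adjusted p = 2.28e-05, limma) and for SESN1 it was 0.73 (0.32 to 1.14, adjusted p = 0.00344). EIF2AK4 differed by -0.30 (adjusted p = 0.0306) and EIF2AK1 by -0.27 (adjusted p = 0.0459), both close to the threshold. With edgeR the adjusted p was 0.0947 for EIF2AK4 and 0.116 for EIF2AK1, and of 19 other settings 9 ended the call of EIF2AK4 and 14 that of EIF2AK1. Over those settings the adjusted p ran from 0.00692 to 0.337 for EIF2AK4 and from 0.000993 to 0.379 for EIF2AK1. EIF2AK3 (0.26, interval -0.05 to 0.56, adjusted p = 0.149) and EIF2S1 (-0.04, interval -0.23 to 0.14, adjusted p = 0.708, limma) were not shown to differ.

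**Figure D2:**
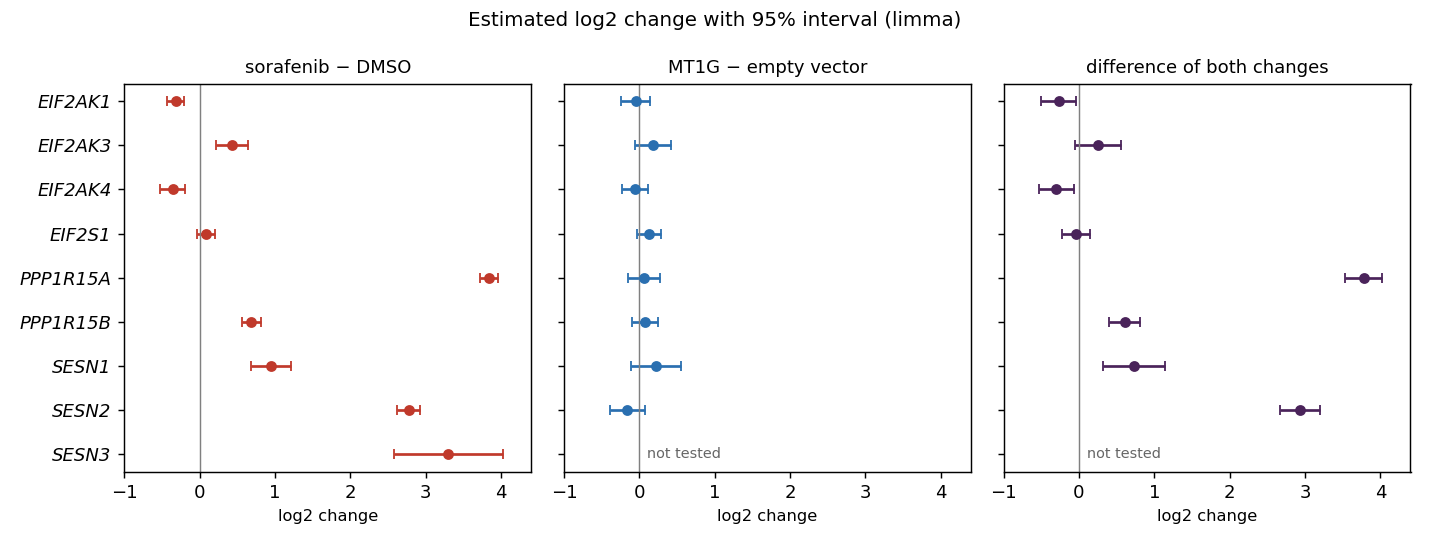
Log2 change of each of the 9 genes (x axis, points) with its 95% interval from limma (bars), for sorafenib minus DMSO, MT1G minus empty vector and the difference of both changes. PPP1R15A and SESN2 stand at 3.84 and 2.77 with sorafenib, every MT1G interval crosses 0, and SESN3 was tested in the sorafenib comparison only.

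The tables were normalized separately, so levels over all 4 groups are given as CPM, the reads of a gene as a share of all reads in genes, scaled to the same total in each library. On that scale, sorafenib libraries had the highest level of 7 of the 9 genes with no overlap with any other group, as did 39.3% of the 14915 genes tested with sorafenib. Those 7 include EIF2S1, whose change did not pass the test with size factors. SESN3 is also among them, but it passed the minimum mean only through its sorafenib libraries, so its place was set by the filter. The others were EIF2AK3, PPP1R15A, PPP1R15B, SESN1 and SESN2. PPP1R15A stood at 1121 ± 27.8 CPM with sorafenib, 66.8 ± 1.90 with DMSO, 59.4 ± 7.74 with MT1G and 54.1 ± 3.13 with the vector (SD, n = 3 each), and those last 2 groups overlapped each other as did DMSO and MT1G. SESN2 stood at 145.0 ± 2.79 with sorafenib and at 18.1 ± 0.985, 17.4 ± 0.590 and 16.3 ± 1.45 with DMSO, vector and MT1G, each overlapping its neighbour. SESN3 was at 3.11 ± 0.172 with sorafenib and at 0.172 to 0.240 in the means of the other groups. EIF2AK1 was lowest with sorafenib at 191 ± 1.84, then DMSO at 204 ± 6.69, with vector at 224 ± 11.6 and MT1G at 228 ± 27.6 overlapping. With read totals its sorafenib change was only -0.09 and not called (adjusted p = 0.110, limma). MT1G and vector libraries did not overlap in CPM for 3 of the 8 members tested (EIF2AK3, EIF2S1 and SESN1), as for 39.2% of genes, and SESN1 stood at 4.37 to 5.13 with the vector and 5.45 to 6.42 with MT1G. None of the 3 was called by limma with read totals (adjusted p = 0.147, 0.0775 and 0.196). For EIF2AK4 every neighbouring pair of groups overlapped, from 95.3 ± 8.02 with sorafenib to 104.8 ± 11.7 with DMSO.

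The rest of the pathway was read from 9 lists of genes, called as above, and the members themselves were left out of them. The median log2 change over all genes, to set beside each list's median, was -0.02 with sorafenib and 0.00 with MT1G. Counts per list stand against 34.4% of all genes higher and 35.8% lower with sorafenib, and 11.5% and 11.3% with MT1G. Of the transcription factors of the ATF4 branch, 5 of 9 were higher and 1 lower with sorafenib, with a median of 0.995. One of the 5, NUPR1, passed the minimum mean through its sorafenib libraries, at 20.6 normalized reads against 6.47 with DMSO (named after its values were seen). ATF4, whose translation eIF2 phosphorylation favours, had a mean of 12135 normalized reads with sorafenib and 6097 with DMSO (log2 change 0.995, named after its values were seen). ATF3, an immediate stress response factor, rose from 292 ± 20.1 to 5256 ± 147 (4.17, SE 0.07), and DDIT3 (CHOP), a pro-apoptotic factor that activates PPP1R15A, rose from 83.0 ± 12.6 to 637 ± 12.7 (2.94, SE 0.12). CEBPG, a partner of ATF4, rose by 1.35, and CEBPB fell by 0.42 on the log2 scale. TRIB3, an ATF4 target and feedback inhibitor also named after its values were seen, had 3973 normalized reads with sorafenib against 4169.9 with DMSO, a log2 change of -0.07 that was not called. With MT1G, 2 of 9 were higher and 1 lower, with a median of -0.03: ATF3 rose by 0.34, CEBPB by 0.30, and JDP2, a repressor that pairs with these factors, fell by 0.37.

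The amino acid supply targets of ATF4 were called in both directions with sorafenib, with 8 of 19 higher, 6 lower and a median of 0.08. With read totals 11 were higher and 4 lower, with a median of 0.31 beside 0.21 over all genes. ASNS, asparagine synthetase, rose from 9.40 ± 2.00 to 240.4 ± 18.7 normalized reads (4.55, SE 0.20), its DMSO mean being under the minimum of 10. CHAC1, which degrades glutathione, rose by 1.78, and SLC3A2, the heavy chain shared by several amino acid transporters, by 0.98. Its light chains SLC7A5, a leucine transporter, and SLC7A11, the cystine transporter, fell by 1.08 and 1.19 on the log2 scale, and the arginine transporter SLC7A1 fell by 0.69. With MT1G, 4 of 18 were higher and 6 lower (median -0.11), and 4 and 4 with read totals. SLC7A11 rose by 0.64, SLC38A2, a glutamine transporter, by 0.59 and ALDH1L2 by 0.46, while PHGDH, PYCR1 and SHMT2, enzymes of serine, proline and glycine synthesis, fell by 0.71, 0.50 and 0.49 on the log2 scale.

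Of the stress and secreted targets of ATF4, 5 of 11 were higher and 4 lower with sorafenib (median 0.04). GDF15, a secreted stress cytokine that is also in the p53 list, rose by 1.68, HERPUD1, a part of endoplasmic reticulum protein degradation, by 1.25 and STC2, a secreted glycoprotein, by 1.02. DDIT4, an inhibitor of mTORC1, fell from 8165 ± 266 to 2553 ± 99.3 (-1.68, SE 0.06), and ERO1A and VEGFA fell by 0.71 and 0.53 on the log2 scale. With MT1G 2 of 11 were higher, ERO1A by 0.48 and STC2 by 0.37, and 1, SQSTM1, was lower at -0.24 (median 0.09). SQSTM1 was not called when libraries were scaled by read totals. Of the 12 aminoacyl tRNA synthetases, which charge tRNA and are in part ATF4 targets, 5 were higher and 5 lower with sorafenib (median -0.10). Scaled by read totals, 5 were higher and 1 lower. YARS1, GARS1 and SARS1 rose by 0.47, 0.45 and 0.36. IARS1 fell by 0.57 on the log2 scale, and the falls of EPRS1 (-0.38) and AARS1 (-0.19) were called with size factors but not with read totals, where AARS1 turned to 0.03. With MT1G 1 of 12 was higher (NARS1, 0.24) and 2 lower (AARS1, -0.31, and YARS1, -0.26), with a median of -0.03.

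Closest to the members themselves, the list of other eIF2 subunits, exchange factors and related initiation factors gave 5 of 10 higher and 1 lower with sorafenib (median 0.16). With read totals it gave 8 higher and 1 lower. EIF5, the GTPase-activating protein of eIF2, rose from 4567 ± 185 to 8435 ± 322 normalized reads (0.88, SE 0.06), EIF2B2, a subunit of the exchange factor, by 0.35, and EIF2D by 0.22. EIF2S3, the gamma subunit of eIF2, fell by 0.42 on the log2 scale. With MT1G, limma and edgeR called 0 of 10 and DESeq2 1, while 5 had an unadjusted p under 0.05 in limma (median 0.00). The share of all genes under that unadjusted threshold was not computed. Scaled by read totals, limma called 3 of 10 higher. Of 11 regulators and partners of the kinases and phosphatases, 1 was higher and 6 were lower with sorafenib (median -0.29), and 3 and 3 with read totals. EIF2AK2 (PKR), the kinase of the family that senses double-stranded RNA, fell by 0.84, PPP1CB, a catalytic subunit of protein phosphatase 1, by 0.68 and GCN1, the activator of EIF2AK4, by 0.34 on the log2 scale. PPP1CC, another catalytic subunit of that phosphatase, rose by 0.22. With MT1G, 3 were higher and 1 lower (median 0.19). DNAJC3, an inhibitor of these kinases, rose from 1021 ± 23.2 to 1619.7 ± 167 (0.66), HSPA5 (BiP), the chaperone that holds EIF2AK3 inactive, from 24746 ± 752 to 35445 ± 3192 (0.51) and PPP1CB by 0.29, while DELE1, which carries mitochondrial stress to EIF2AK1, changed by -0.33.

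Of 33 genes through which sestrins and amino acids reach mTORC1, 32 were matched by name and 30 tested. With sorafenib 11 were higher and 14 lower (median -0.10), and with read totals 14 and 9. RRAGB and RRAGC, GTPases that bring mTORC1 to the lysosome, rose by 1.37 and 0.98, and MIOS, a subunit of the GATOR2 complex that sestrins bind, rose from 448 ± 27.8 to 866 ± 55.8 (0.95, SE 0.08). CASTOR2, a relative of the arginine sensor, fell from 1015 ± 100.3 to 312 ± 33.3 (-1.70), DEPDC5, a subunit of GATOR1, fell by 1.66, and RPTOR, which defines mTORC1, by 1.05 on the log2 scale. With MT1G 2 were higher and 4 lower (median -0.08). SLC38A9, a lysosomal arginine sensor, rose by 0.76 and PRKAA2, a catalytic subunit of AMPK, by 0.66. CASTOR2, MLST8, a subunit of both mTOR complexes, and TSC2, an inhibitor of mTORC1, fell by 0.58, 0.53 and 0.32 on the log2 scale.

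**Figure D3:**
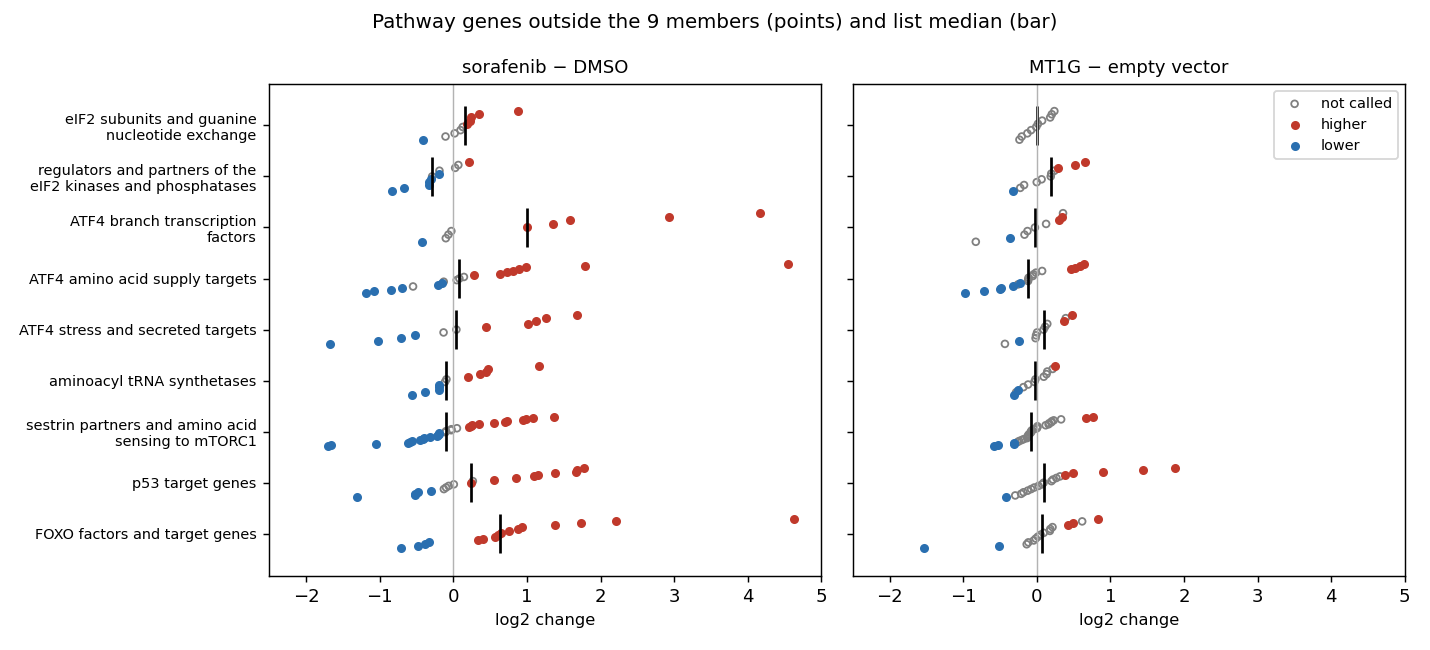
Log2 change (x axis) of every tested gene of the 9 pathway lists (points, filled where called higher or lower) with the list median (bar), for sorafenib minus DMSO and MT1G minus empty vector. With sorafenib, genes of 1 list spread to both sides of 0, from ASNS at 4.55 to SLC7A11 at -1.19 in the amino acid supply list, and with MT1G most points are not called.

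The genes whose pattern over the 12 RNA libraries was most like that of each member were found among 10129 genes by the root mean square difference of their log2 values, each table centred on its controls. Nearest to PPP1R15A were H2AW (0.0985), a histone gene, JUN (0.172), an AP-1 subunit, and MT1E (0.190), a metallothionein. Their log2 changes with sorafenib were 3.89, 3.85 and 4.08. Nearest to SESN2 were SLC25A25 (0.134), a mitochondrial carrier, SNHG1 (0.156), a host gene of small nucleolar RNAs, and ATF7IP2 (0.174), at 2.65, 2.55 and 2.51 with sorafenib. Nearest to SESN1 were FAM118B (0.103), APBA3 and ITPRIP, and nearest to PPP1R15B were GMNN (0.0421), PRKAB2 and KDM4C. For EIF2AK1 they were PPT1 (0.0468), DHX8 and CCNI, for EIF2AK3 NEK4 (0.0474), ZNF331 and TBC1D31, for EIF2AK4 FAM8A1 (0.0521), HSPA9 and EP300, and for EIF2S1 C9orf78 (0.0233), PTK2 and UAP1. SESN3 was not compared, since it was not tested in the MT1G table.

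Open chromatin near the members was described from the authors' peak lists, one list per library. The lists held 131239 and 156760 peaks in the DMSO libraries (titled replicates 1 and 2) and 139294 and 135671 in the sorafenib libraries (titled 3 and 4). Median peak widths were 449 and 384 bases in DMSO and 285 and 280 in sorafenib libraries, so the lists differed in width with the treatment. With 2 against 2 libraries a permutation test cannot pass a threshold of 0.05, and the presence of peaks is given as a description with no test. Merged over the 4 libraries, 44 of 220925 regions lay within 2 kb of a member gene. Of these, 2 had a peak in both sorafenib libraries and in neither DMSO library, against 6.40% of all regions, and 4 had the reverse, against 26467 of all 220925 regions. Together 6 of 44 were gained or lost, against 18.4% of all regions. These counts moved when 1 library was left out, which asks for a peak in fewer libraries: 7 regions were gained without sorafenib replicate 3 or without replicate 4, and 11 were lost without DMSO replicate 1. Both gained regions lay inside SESN2, at chr1:28273237-28273812 (fold enrichment 3.45 and 4.83, as the authors' peak caller gave it) and chr1:28280539-28280777 (3.50 and 3.11). The lost regions lay inside EIF2AK3 (chr2:88609296-88609655), EIF2AK4 (chr15:39936195-39936403 and chr15:40002286-40002593) and SESN1 (chr6:109073437-109073671), with folds of 3.34 to 5.84. All coordinates are hg38, and no exon annotation was used here. At a stricter -log10 q of at least 5, no gained and 2 lost regions were left.

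At the starts themselves, 9 of the 10 member windows had a peak in all 4 ATAC-seq libraries, as did 43.3% of all 35116 windows, and 1, that of SESN3, had none. SESN1 has several of these windows, and those starting at chr6:109008939 and chr6:109009503 lay under the same peak. PPP1R15A, the gene with the largest RNA change, had a region over its start in every library, with folds of 5.29 and 5.22 in the DMSO lists and 4.33 and 4.48 in the sorafenib lists. A second region inside PPP1R15A, at chr19:48874557-48875988, was also present in all 4 ATAC-seq libraries. The SESN2 start had folds of 14.3 and 18.5 with DMSO and 16.2 and 13.8 with sorafenib, and the PPP1R15B start 8.75 and 10.7 with DMSO and 9.88 and 10.6 with sorafenib. Each fold belongs to its own list. SESN3 had a region in all 4 ATAC-seq libraries 639 to 1626 bases downstream of its listed start (chr11:95230849-95231836), with folds of 19.0 and 22.6 with DMSO and 22.1 and 20.9 with sorafenib. So SESN2 carried both gained regions while PPP1R15A, PPP1R15B, SESN3, EIF2AK1 and EIF2S1 had neither a gained nor a lost region.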

How the data were processed

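RNA-seq of 12 libraries (4 groups of 3) and ATAC-seq of 4 libraries (2 groups of 2) were grouped by the sample titles, and columns numbered 1 to 3 in a table were assumed to be replicates 1 to 3. The submitters' processing notes name the hg38 genome and MACS2 2.2.7.1, Bowtie2 2.4.1, SAMtools, Picard, HISAT2 1.1.0, cutadapt, featureCounts 1.6.1 and DESeq2; the role of each, the strandedness and the handling of reads that map to several genes are not given in the sources used here. The deposited signal values were normalized read counts, which the authors made by dividing gene counts by a size factor per library: multiplied back, 100.0% of values were whole numbers within 0.001. The log2 fold changes, their test score and the p-values in the authors' deposited comparison tables were the authors' own, and only the log2 values are quoted. The deposited peak lists gave, from the authors' peak caller, a score and a fold enrichment ratio for every peak, beside its -log10 q and its -log10 p. Peaks had been listed per library.

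Genes averaging 10 or more in a table's 6 libraries were tested on log2(normalized read count + 1) with limma 3.58.1 in R 4.3.3 (trend, robust, two-sided), with Benjamini-Hochberg adjustment over all genes tested and a threshold of 0.05. The difference of both changes was a contrast over 4 groups. edgeR 4.0.16 and DESeq2 1.42.0 on the recovered reads were alternatives, as were TMM factors, other filters and pseudocounts, a replicate block and leaving out each library. The fits were tested on simulated data. For the difference of both changes the simulation held counting noise alone, less than the spread between these libraries, so it does not show false calls at that spread. Peaks sharing at least 1 base were merged into regions, and start windows came from RefSeq. Precision is limited by 3 libraries a group.

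The 9 members and the pathway and marker lists were chosen with earlier results of these data known. All 9 members are named, with up to 3 higher and 3 lower called genes of smallest p per list and the 3 genes of most alike pattern per member. The lists hold 141 genes. The marker lists cover hepatocyte and hepatoma, fibroblast and stellate, endothelial and leukocyte genes.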

Additional observations from a re-analysis of the deposited data

How the results depend on the processing

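The 9 log2 changes of the members with sorafenib were recomputed under 134 alternatives, of which 131 kept direction and side of the threshold. PPP1R15A, PPP1R15B, SESN1, SESN2 and EIF2AK3 were called higher in every one run. Both counts hold 14 alternatives of SESN3, which passed the main minimum mean only through its sorafenib libraries. The 3 exceptions came with read totals in place of size factors, a setting chosen after seeing the data: EIF2AK1 (-0.09) and EIF2AK4 (-0.13) were no longer called and EIF2S1 (0.31) was, so 7 members, SESN3 included, were higher and 0 lower. There 6872 genes were higher and 3496 lower with sorafenib, and 1985 higher and 942 lower with MT1G. On the recovered reads edgeR called 5367 genes higher and 5076 lower with sorafenib and 1537 and 1320 with MT1G. SESN3 could not be tested at a mean of at least 100, where 3372 genes were higher. With MT1G, no member was called under any of 120 alternatives, and 5 values turned sign: EIF2AK1 to 0.020 and EIF2AK4 to 0.0093 with read totals, EIF2AK1 to 0.066 and EIF2AK4 to 0.0072 without MT1G replicate 3, and PPP1R15A to -0.035 without MT1G replicate 1. With 1 library left out, these ran from -0.11 to 0.066 for EIF2AK1, from -0.12 to 0.0072 for EIF2AK4 and from -0.035 to 0.18 for PPP1R15A. Leaving out each library in turn gave 4607 to 5281 genes higher and 4973 to 5393 lower with sorafenib. With MT1G it gave 1007 to 1818 higher and 764 to 2013 lower, the low counts without vector replicate 2 (1062 and 824) and without vector replicate 3 (1007 and 764). The number of members that differed between both changes ran from 4 to 6, and EIF2AK1 and EIF2AK4 were those lost. For EIF2S1 that difference turned to 0.017 with edgeR and 0.11 with read totals, and for EIF2AK3 it was called at 0.41 with read totals (adjusted p = 0.0377, limma, the lowest of 0.0377 to 0.392 over its alternatives). Gained regions near members numbered 0 and lost regions 2 at a -log10 q of at least 5. Leaving out each ATAC-seq library gave 2 to 7 gained (7 without sorafenib replicate 3 or 4) and 4 to 11 lost (11 without DMSO replicate 1). The cause of these changes was not tested, except that fewer genes are tested under a stricter minimum. Same-numbered libraries did not deviate together (correlations from -0.06 to 0.03 with sorafenib and from -0.14 to 0.04 with MT1G), so no sign of pairing by number was seen. That cannot show that the design was unpaired, since the replicate numbers of the columns were assumed. With the replicate block, 4992 genes were higher and 5201 lower with sorafenib, 1691 and 1566 with MT1G, and 5 members differed, EIF2AK1 being lost (adjusted p = 0.0724, limma). Among the named genes, the sorafenib calls of EIF2AK1, EIF2AK4 (-0.36), EPRS1 (-0.38) and AARS1 were lost with read totals. Those of GCN1 (-0.34) and CAT (-0.38), of like size, were kept. SESN3 at 2.89 to 7.64 normalized reads with DMSO was limited by depth.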

Other observations

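Targets of the factors known to drive sestrin genes were called in both directions. Of 19 tested p53 target genes, limma called 9 higher and 5 lower with sorafenib, with a median log2 change of 0.23 beside -0.02 over all genes, of which 34.4% were higher and 35.8% lower. With read totals 11 were higher and 4 lower (median 0.46, and 0.21 over all genes). PLK3, a stress-induced kinase, rose from 219 ± 23.4 to 751 ± 21.7 normalized reads (1.78, SE 0.09), AEN, a nuclease active in apoptosis, rose by 1.38 and TNFRSF10B, the death receptor for TRAIL, by 1.09. MDM2, the inhibitor of p53, fell by 0.53 on the log2 scale, CCNG1 by 0.52 and BAX, a pore-forming death protein, by 0.48. With MT1G, 5 were higher and 1 lower (median 0.09, and 0.00 over all genes), and 6 and 0 with read totals. CDKN1A, the cell cycle inhibitor p21, rose from 272 ± 5.13 to 1002 ± 103 (1.87, SE 0.10) and FAS, a death receptor, from 33.8 ± 9.26 to 91.8 ± 8.13 (1.45, SE 0.22), and AEN rose by 0.39. BTG2 was lower at -0.42, a call not made when libraries were scaled by read totals. Both CDKN1A and BTG2 were among the 9 genes called higher with sorafenib (named after their values were seen). CDKN1A had a mean of 977 normalized reads with sorafenib and 440 with DMSO, and BTG2 had 536 and 168. In the libraries of both comparisons SESN1, a p53 target, had a log2 change of 0.95 with sorafenib and 0.22, not called, with MT1G.

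Of 16 FOXO factors and target genes, 12 were higher and 4 lower with sorafenib (median 0.63). GADD45A, a DNA damage and stress gene, rose from 564 ± 33.6 to 13913 ± 495 normalized reads (4.62, SE 0.06), TXNIP, an inhibitor of thioredoxin, rose by 1.73 and SOD2, the mitochondrial superoxide dismutase, by 1.38. RICTOR, which defines mTORC2, fell by 0.71 on the log2 scale, FOXO4 by 0.49 and catalase (CAT) by 0.38. With MT1G, 3 were higher and 2 lower (median 0.07). RICTOR rose by 0.83, SOD2 by 0.49 and CITED2 by 0.43, whereas FOXO6 and TXNIP were lower at -1.53 and -0.51. SESN3, known as a FOXO target, stood at a log2 change of 3.30 with sorafenib. Fibroblast and stellate cell marker LUM moved in these libraries too, at 447 with sorafenib and 1779.6 with DMSO, and 2083 with MT1G and 1502 with the vector, while COL1A1 was at 439.7, 464, 452 and 387 in that order, and their part in these values was not tested.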
